A study of Mus musculus with 13 samples.

Results

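Pdgfra, Cspg4, Olig1, Olig2, Sox10, Gpr17, Bcas1, Enpp6, Itpr2 and Tnr are genes used to follow the oligodendrocyte lineage from its precursor to its committed stage. They were taken by symbol from the 4 deposited tables, which held all 10 among the 21056 genes present in every table. All 10 passed the filter on low counts that left 16940 genes for testing. The 13 libraries came from bulk brain RNA of male mice, 1 animal each, with a Cre recombinase activated by tamoxifen at the Cx3cr1 gene and a Cre-dependent diphtheria toxin receptor at the Rosa locus (CX3CR1creER/+, iDTR/+). Every animal, controls included, thus lacked 1 intact Cx3cr1 copy, and every animal received 2 doses of tamoxifen by gavage on alternate days at 7 to 8 weeks of age. After 30 days, the groups named DE received diphtheria toxin at 50 ng per g body weight for 3 days, and the groups named CON received saline. Cx3cr1 is active in microglia and in other mononuclear phagocytes, so tamoxifen could switch on the receptor in both. Which of these cells still carried it when the toxin was given, 30 days later, was not tested. No group here received toxin without the receptor. Surgery was a 60 min transient occlusion of the middle cerebral artery with reperfusion (tMCAO), a stroke model, or a sham operation. This made 4 groups, with 3 libraries of sham_CON, 4 of sham_DE, 4 of tMCAO_CON and 2 of tMCAO_DE. An age of 6 to 8 weeks given for surgery does not match tamoxifen at 7 to 8 weeks followed by 30 days, and neither the time from occlusion to sampling nor the brain part is given in the sources used here.

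Oligodendrocyte precursor cells persist in the adult brain, divide, and give rise to the oligodendrocytes that myelinate axons. They carry the receptor for platelet-derived growth factor, Pdgfra, and the proteoglycan NG2, encoded by Cspg4. The transcription factors Olig1, Olig2 and Sox10 mark the lineage from precursor to myelinating cell. A precursor that commits to differentiation loses Pdgfra and Cspg4 and passes through a short stage marked by Gpr17, a G protein-coupled receptor, before Bcas1, Enpp6 and then the myelin genes mark newly formed and mature oligodendrocytes. Pdgfra and Cspg4 also have other sources in the brain, since fibroblasts express Pdgfra and pericytes express Cspg4. In bulk RNA, fewer cells of a type and less RNA per cell cannot be told apart.

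Levels are given as CPM, counts scaled to the library total after TMM adjustment and multiplied to a common size, within a gene, and as FPKM, which also divides by gene length, between genes. Differences are on the log2 scale, each with ± its standard error from the fit, and a gene is said to have risen or fallen when its adjusted p in edgeR's quasi-likelihood test over all 16940 genes was under 0.05. Totals ranged from 16239763 to 22080367 counts. Summed over 7 microglia markers, levels were 265 to 286 CPM (sham_CON) against 34.9 to 66.1 CPM (sham_DE), and 282 to 342 CPM (tMCAO_CON) against 41.1 to 46.2 CPM (tMCAO_DE), so the microglial markers followed the labels. Mitochondrial genes took 7.84% to 8.74% of counts in the depleted and 9.03% to 9.86% in the control libraries, and their part in the depletion results was not tested. Replicate 1 of sham_DE stood apart on the first principal component, at -5.04 against 31.9 to 48 for the other depleted libraries. Replicate 4 of tMCAO_CON is titled as occluded while its treatment field names the sham operation. On the second component it lay among the group of its title, at -22.4 against -38.4 to -20 for the others and 16 or more in sham libraries. Calls that ended without either library are named below.

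**Figure D1:**
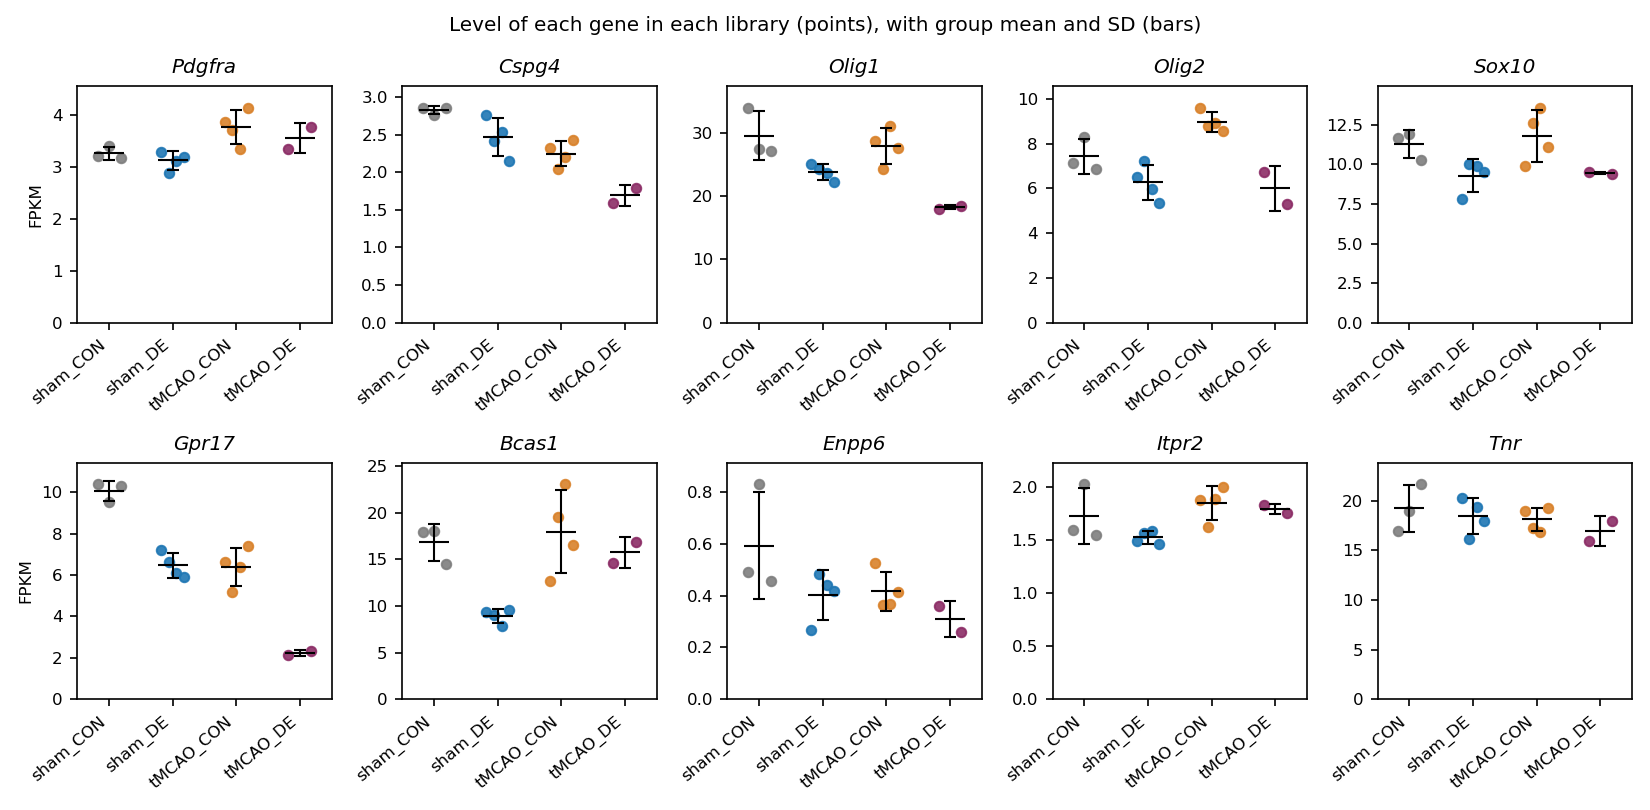
Levels of the 10 lineage genes in FPKM, 1 panel per gene with a linear axis from 0, 1 point per library and bars for the group mean and SD. Gpr17 averages 10.1 FPKM in sham_CON, 6.39 in tMCAO_CON, 6.46 in sham_DE and 2.23 in tMCAO_DE, whereas Pdgfra stays between 2.89 and 4.15 FPKM in every library.

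All 10 genes were detected in every library. In sham_CON the order of levels per length was Olig1 at 29.5 ± 3.86 FPKM (SD, n = 3), Tnr at 19.3 ± 2.37, Bcas1 at 16.8 ± 2.03, Sox10 at 11.3 ± 0.894, Gpr17 at 10.1 ± 0.476 and Olig2 at 7.42 ± 0.769. Below them came Pdgfra at 3.26 ± 0.126, Cspg4 at 2.83 ± 0.0586, Itpr2 at 1.72 ± 0.263 and Enpp6 at 0.593 ± 0.207 FPKM. Tnr and Bcas1, and likewise Sox10 and Gpr17, were neighbours whose library values overlapped. In sham_DE the mean of Gpr17 lay between those of Bcas1 and Olig2, at 6.46 ± 0.585 FPKM. Its libraries overlapped those of Olig2 there, at 5.91 to 7.21 against 5.36 to 7.22 FPKM. Sox10 at 9.3 ± 1.02 came before Bcas1 at 8.94 ± 0.777 in sham_DE, also with overlap. In tMCAO_CON Gpr17 came after Olig2, at 6.39 ± 0.909 against 8.97 ± 0.453 FPKM. In tMCAO_DE Gpr17 averaged 2.23 ± 0.145 FPKM (SD, n = 2), below Pdgfra at 3.56 ± 0.296 FPKM, whereas in sham_CON each library held 2.8 to 3.25 times as much Gpr17 as Pdgfra. Enpp6 rested on 29 to 81 counts per library and was the least precise of the 10.

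Of the 10 genes, 5 changed in at least 1 of the 4 comparisons, namely Gpr17, Bcas1, Cspg4, Olig1 and Olig2. Depletion in sham mice lowered 3 of 10, Gpr17, Bcas1 and Olig1, where 11.3% of all tested genes were called and 4.49% were called lower. Occlusion with microglia present lowered 2 of 10, Gpr17 and Cspg4, against 8.44% called and 3.31% called lower. Occlusion after depletion lowered 3, Gpr17, Cspg4 and Olig1, and raised 1, Bcas1, against 12.4% called, 5.84% lower and 6.59% higher. Depletion in occluded mice lowered 4, Gpr17, Cspg4, Olig1 and Olig2, against 18.6% called and 9.26% called lower. DESeq2 gave the same numbers of risen and fallen genes among the 10 in these comparisons. At an unadjusted p under 0.05, edgeR's quasi-likelihood test had 6, 3, 4 and 5 of the 10 in that order of comparisons. The share of all tested genes at that unadjusted threshold was not counted, so no excess among the 10 can be read from these numbers. The comparisons share groups, so their counts are not independent of each other.

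**Figure D2:**
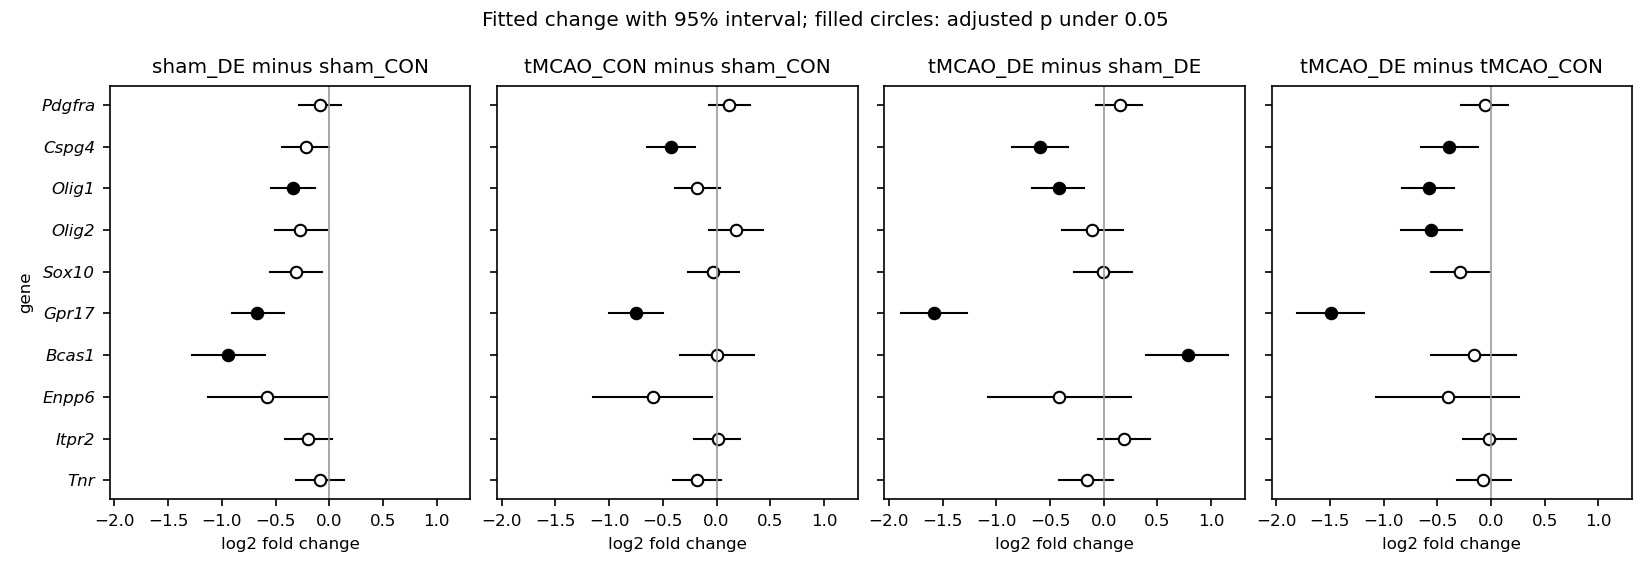
Fitted log2 fold changes of the 10 genes in the 4 comparisons, with bars for the 95% confidence interval and filled points for an edgeR adjusted p under 0.05. Gpr17 lies below 0 in all 4 panels, and Pdgfra has an interval across 0 in each.

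The median log2 change of the 10 genes was -0.29 for depletion in sham mice, beside 0.00 for all tested genes, and -0.34 for depletion in occluded mice, beside -0.01. It was -0.10 for occlusion with microglia, beside 0.02, and -0.14 for occlusion after depletion, beside 0.00. Libraries of the 2 groups did not overlap, with the lower values in the DE group, for 5 of the 10 genes in sham mice, where 10.9% of all genes did so, and for 5 in occluded mice, where 22.9% did. Sox10 was in both of these sets without being called, and Itpr2 in the first.

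Pdgfra, the receptor through which platelet-derived growth factor keeps precursors dividing, passed in none of the 4 comparisons. Its CPM were 49.8, 52.3 and 49.8 in sham_CON, 55.8, 54.2, 48.1 and 61.6 in tMCAO_CON, 51.4, 43.6, 47.6 and 48.3 in sham_DE and 49.3 and 56.2 in tMCAO_DE. Both groups overlapped in each comparison. The 95% interval of the log2 change was -0.28 to 0.11 for depletion in sham mice and -0.28 to 0.16 for depletion in occluded mice. For occlusion it was -0.07 to 0.31 with microglia and -0.07 to 0.36 after depletion. Pdgfra lies on chromosome 5 of GRCm38 (mm10) from 75152292 to 75198215, on the forward strand, with 27 exon blocks.

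Cspg4, the core protein of NG2 on the surface of precursors, was lower after occlusion whether or not microglia were depleted. Its CPM were 23.9, 22.8 and 24.1 in sham_CON and 18, 16, 17 and 19.4 in tMCAO_CON, with no overlap (log2 change -0.42 ± 0.10, edgeR adjusted p = 0.024). Among depleted mice, sham_DE libraries had 23.1, 19.6, 20.8 and 17.4 CPM and tMCAO_DE libraries 12.6 and 14.4 CPM (-0.59 ± 0.12, edgeR adjusted p = 0.0092). The tMCAO_DE libraries also lay below every tMCAO_CON library (-0.39 ± 0.12, edgeR adjusted p = 0.042), while sham_DE and sham_CON overlapped (-0.22 ± 0.10, edgeR adjusted p = 0.18). Each of these calls ended without some single libraries. The first ended without sham_CON 1 or 3 or tMCAO_CON 2 or 3 (edgeR adjusted p = 0.056 to 0.091), and the second without tMCAO_DE 1 (0.11). The third ended in 9 of 13 fits that each left out 1 library, namely any sham_CON library, sham_DE 3, tMCAO_CON 1, 3 or 4 or either tMCAO_DE library (0.052 to 0.26). Cspg4 lies on chromosome 9 from 56865033 to 56899870, on the forward strand, with 10 exon blocks.

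Bases before the annotated starts of these precursor markers are shown as sequence only. Cspg4 fell with occlusion while Pdgfra did not pass, but the difference between the 2 genes was not tested. RefSeq windows of GRCm38.p6 were found for 6 of the 10 genes. They were searched on both strands for the E-box hexamers CAGCTG and CAGATG, a class read by Olig factors, and for ACAAAG and ACAATG, a class read by Sox factors, with matches in capitals.
Pdgfra, chr5:75152001-75152250, forward strand: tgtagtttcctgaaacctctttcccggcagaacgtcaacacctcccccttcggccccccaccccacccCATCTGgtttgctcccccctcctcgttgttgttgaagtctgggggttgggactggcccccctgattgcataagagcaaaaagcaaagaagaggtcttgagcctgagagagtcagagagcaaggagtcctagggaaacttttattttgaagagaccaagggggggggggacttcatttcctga
Cspg4, chr9:56864854-56865032, forward strand: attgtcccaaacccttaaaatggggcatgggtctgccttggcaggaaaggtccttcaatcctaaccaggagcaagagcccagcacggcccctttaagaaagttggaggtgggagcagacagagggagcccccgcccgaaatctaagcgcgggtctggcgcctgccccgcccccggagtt
The Pdgfra window of 250 bases ends at 75152250, short of the annotated start at 75152292. It held CATCTG, the reverse complement of CAGATG, 1 time. Of 32851 windows of that length, 14.4% held CAGATG or CATCTG. The Cspg4 window, 179 bases long after leaving out the annotated gene, held none of the 4 hexamers, which occurred in 7.83% to 12.2% of windows of its length. Both are letters found in a window and not measured sites.

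Olig1 and Olig2, neighbouring basic helix-loop-helix genes of the lineage on chromosome 16, were both lower in depleted than in control mice after occlusion. Olig1 was at 59.7, 51.0, 64.5 and 59.4 CPM in tMCAO_CON and at 38.3 and 40 CPM in tMCAO_DE (log2 change -0.58 ± 0.11, edgeR adjusted p = 0.0059). Olig2, which specifies the lineage in development, was at 22.6, 20.8, 20.9 and 20.8 CPM in tMCAO_CON and at 16.1 and 12.8 CPM in tMCAO_DE (-0.56 ± 0.13, edgeR adjusted p = 0.014). Neither pair of groups overlapped. In sham mice Olig1 was at 76.2, 61.1 and 61.3 CPM in sham_CON and at 56.3, 53.0, 52.2 and 48.5 CPM in sham_DE (-0.34 ± 0.10, edgeR adjusted p = 0.042), whereas the groups overlapped for Olig2 (-0.27 ± 0.11, edgeR adjusted p = 0.14). Occlusion after depletion also lowered Olig1 (-0.42 ± 0.11, edgeR adjusted p = 0.028).

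The Olig1 and Olig2 calls rested on few libraries. For Olig1, the call in occluded mice ended without tMCAO_DE 1 (edgeR adjusted p = 0.053) or 2 (0.061). Its call in sham mice ended in 10 of 13 fits that each left out 1 library, namely any sham_CON library, sham_DE 2, 3 or 4, tMCAO_CON 1 or 4 or either tMCAO_DE library (0.05 to 0.18). The call for occlusion after depletion ended without sham_DE 1 or 2 or either tMCAO_DE library (0.05 to 0.18). The Olig2 call ended without tMCAO_DE 2 (edgeR adjusted p = 0.17). Olig1 lies on chromosome 16 from 91269772 to 91271933 in 1 exon block and Olig2 from 91225457 to 91228677 in 2, both on the forward strand.

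Sox10, the Sox factor that acts with the Olig genes to switch on myelin genes, passed in no comparison. Its levels were 29.2 to 33.1 CPM in sham_CON, 25.9 to 35.4 in tMCAO_CON, 22 to 27.3 in sham_DE and 25.4 and 25.5 in tMCAO_DE. Both DE groups lay below their CON group without overlap (log2 change -0.31 ± 0.11, edgeR adjusted p = 0.086 in sham and -0.29 ± 0.13, 0.12 in occluded mice). The ratio of Olig2 to Olig1 in FPKM was 0.255 ± 0.046 (sham_CON) and 0.262 ± 0.0243 (sham_DE) in sham mice, and 0.324 ± 0.0324 (tMCAO_CON) and 0.329 ± 0.0623 (tMCAO_DE) in occluded mice. Control and depleted libraries overlapped in this ratio, in sham and in occluded mice.

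Gpr17, the receptor that marks committed precursors and is shut down before myelination, was lower in all 4 comparisons. Its CPM were 56.0, 50.8 and 56.1 in sham_CON, 33.1, 26.2, 31.8 and 38.1 in tMCAO_CON, 38.9, 34.7, 32.2 and 31.0 in sham_DE and 10.8 and 12.1 in tMCAO_DE. No library of sham_DE or tMCAO_CON reached sham_CON, and both tMCAO_DE libraries lay below all 11 others. Depletion in sham mice changed it by -0.67 ± 0.11 on the log2 scale (95% interval -0.91 to -0.42, edgeR adjusted p = 0.006), a fold of 0.631. Occlusion with microglia changed it by -0.75 ± 0.11 (-1 to -0.50, edgeR adjusted p = 0.0022). After depletion, occlusion changed it by -1.58 ± 0.15 (-1.89 to -1.27, edgeR adjusted p = 7.1e-05), which is 2.99-fold lower. Depletion in occluded mice changed it by -1.49 ± 0.14 (-1.81 to -1.18, edgeR adjusted p = 0.00014), which is 2.82-fold lower. The call held in all 4 comparisons without any single library, with adjusted p of at most 0.03 in edgeR.

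Gpr17 lies on chromosome 18 from 31942997 to 31949636, on the reverse strand, with 2 exon blocks, inside the span of Lims2 on the forward strand. The overlap covers 188 of 5195 exon bases of Gpr17, and whether counting used strand is not given in the sources used here. Lims2, which encodes a focal adhesion protein, passed in none of the 4 comparisons, with log2 changes of -0.10, -0.36, -0.27 and -0.01 in the order depletion in sham mice, occlusion with microglia, occlusion after depletion and depletion in occluded mice. Those values are all smaller in size than the ones of Gpr17, and the part of the shared bases in the Gpr17 counts was not tested.

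Bcas1, a protein of early myelinating oligodendrocytes, behaved differently from Gpr17 after occlusion. The sham_CON libraries had 127, 127 and 104 CPM and those of sham_DE 66.3, 61.9, 54.5 and 66 CPM, a change of -0.94 ± 0.16 on the log2 scale (95% interval -1.28 to -0.60, edgeR adjusted p = 0.0057). In occluded mice the tMCAO_CON libraries had 83.6, 131, 152 and 112 CPM and the tMCAO_DE libraries 97.9 and 115 CPM, which overlapped (-0.16 ± 0.18, edgeR adjusted p = 0.55). Occlusion after depletion raised Bcas1 1.71-fold from the low sham_DE level (0.78 ± 0.18, 0.39 to 1.16, edgeR adjusted p = 0.014). With microglia, occlusion left it at 0.00 ± 0.16 (-0.34 to 0.35, edgeR adjusted p = 0.99), in a group with a wide spread. The rise ended without tMCAO_DE 1 (edgeR adjusted p = 0.054) or 2 (0.14). The fall in sham mice held without any single library and ended without sham_CON 2 and sham_DE 3 together (-0.83, edgeR adjusted p = 0.056). Bcas1 lies on chromosome 2 from 170346991 to 170427845, on the reverse strand, with 17 exon blocks.

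The other members listed under the committed stage passed in none of the comparisons. Enpp6, a choline phosphodiesterase of newly formed oligodendrocytes, was at 2.71 to 4.85 CPM in sham_CON, 2 to 2.87 in tMCAO_CON, 1.57 to 2.77 in sham_DE and 1.47 and 2.01 in tMCAO_DE. Its estimates were all below 0, from -0.59 ± 0.26 to -0.40 ± 0.31, with edgeR adjusted p of 0.16 to 0.41. Itpr2, a calcium release channel used as a marker of committed precursors, stayed between 24.4 and 34.4 CPM in all libraries. For depletion in sham mice its groups did not overlap (log2 change -0.20 ± 0.10, edgeR adjusted p = 0.21). Tnr, an extracellular matrix glycoprotein of precursors and interneurons, stayed between 223 and 325 CPM. For Tnr the log2 changes ran from -0.18 ± 0.10 to -0.07 ± 0.12.

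Within a library, the balance of committed to precursor transcripts can be read as a ratio of FPKM values. Gpr17 to Pdgfra was 3.24, 2.8 and 3.25 in sham_CON, 1.71, 1.39, 1.9 and 1.78 in tMCAO_CON, 2.18, 2.29, 1.95 and 1.85 in sham_DE and 0.634 and 0.618 in tMCAO_DE. The sham_CON and tMCAO_DE libraries stood at opposite ends, and sham_DE and tMCAO_CON overlapped at 1.85 to 1.9. Bcas1 to Gpr17 was 1.68 ± 0.251 (sham_CON) and 1.39 ± 0.158 (sham_DE) in sham mice against 2.89 ± 0.951 (tMCAO_CON) and 7.06 ± 0.286 (tMCAO_DE) in occluded mice. Within the precursor pair, Cspg4 to Pdgfra was 0.867 ± 0.0503 and 0.79 ± 0.0794 in the sham groups and 0.597 ± 0.0454 and 0.475 ± 0.00168 in tMCAO_CON and tMCAO_DE. No test was made on these ratios, whose genes were chosen with earlier results of these data known.

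**Figure D3:**
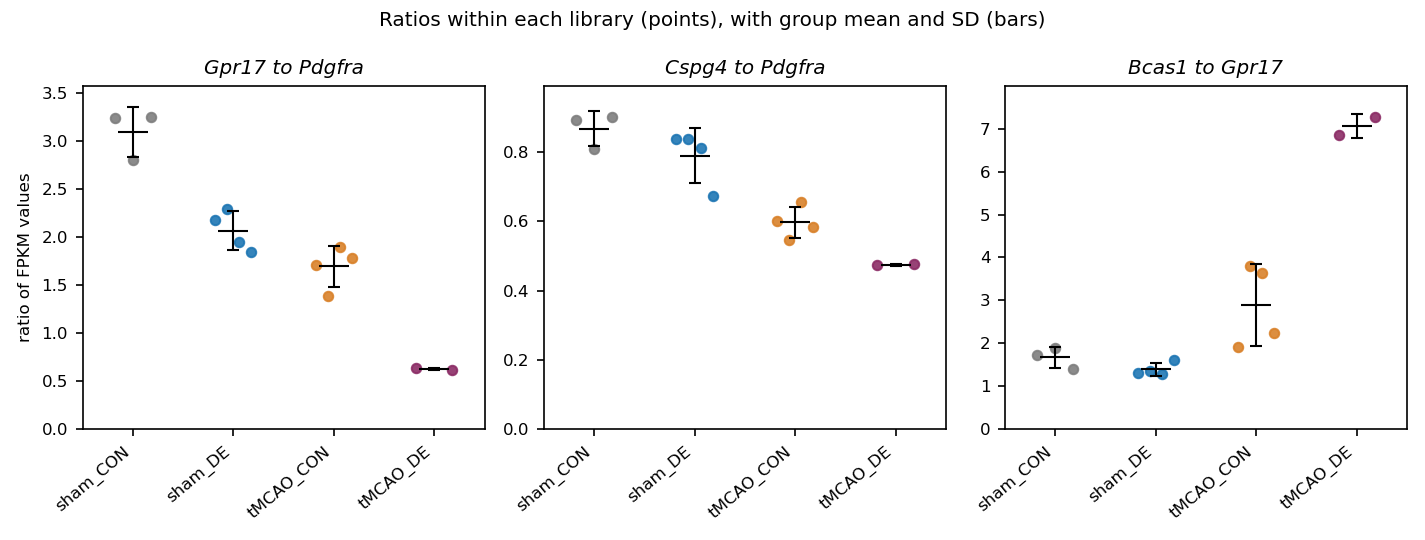
Ratios of FPKM values within each library, 1 point per library and bars for the group mean and SD, on axes from 0. The ratio of Gpr17 to Pdgfra is lowest in the tMCAO_DE libraries, at 0.618 and 0.634, and that of Bcas1 to Gpr17 is highest there, at 6.86 and 7.27.

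A summary over these members moved less than Gpr17 alone. The mean log2 FPKM of the 5 members listed as committed (Gpr17, Bcas1, Enpp6, Itpr2 and Tnr) minus that of Pdgfra and Cspg4 was 0.723 ± 0.128 in sham_CON, 0.578 ± 0.0881 in tMCAO_CON, 0.391 ± 0.125 in sham_DE and 0.376 ± 0.122 in tMCAO_DE. The DE groups were lower than sham_CON, with no library of either reaching it. Cspg4, on the subtracted side, was itself lower in tMCAO_DE (mean 1.69 FPKM) than in sham_CON (2.83) and sham_DE (2.47), which raises the summary in tMCAO_DE. Bcas1, on the other side, was higher in tMCAO_DE (15.7 FPKM) than in sham_DE (8.94). Tnr is also a gene of precursors, and Tnr and Itpr2 are expressed by other cells too. Without both, the summary was 0.595 ± 0.168 for sham_CON, 0.303 ± 0.12 for tMCAO_CON, 0.0281 ± 0.186 for sham_DE and -0.153 ± 0.151 for tMCAO_DE.

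Whether depletion altered the response to occlusion was tested as the interaction, the occlusion change after depletion minus that with microglia. None of the 10 genes passed in edgeR, where 8 of all tested genes, 0.0472%, were called. Of the 10, 2 were under an unadjusted p of 0.05 in edgeR, and the share of all tested genes under it was not counted. For Gpr17 the difference was -0.83 ± 0.18 (95% interval -1.22 to -0.44, edgeR adjusted p = 0.18), a larger fall after depletion. DESeq2's Wald test called it (adjusted p = 0.013), while limma on log2(FPKM + 1) did not (0.16), and the adjusted p ranged from 0.098 to 0.43 in edgeR without single libraries. For Bcas1 the difference was 0.77 ± 0.24 (0.26 to 1.29, edgeR adjusted p = 0.33). Olig1 at -0.25 ± 0.15, Olig2 at -0.29 ± 0.17 and Cspg4 at -0.16 ± 0.16 had adjusted p of 0.61 to 0.77 in edgeR.

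Other genes of the lineage moved in few cases. Among 12 other precursor genes, Sox5, a Sox factor that holds back differentiation, fell with depletion in sham mice (log2 change -0.30 ± 0.09, edgeR adjusted p = 0.043). C1ql1, a secreted C1q-like protein, fell with occlusion after depletion (-1.40 ± 0.41, edgeR adjusted p = 0.043) and with depletion in occluded mice (-1.69 ± 0.41, 0.015), and no other of the 12 passed in any comparison. Among 11 tested genes of the committed stage, Mycl, a Myc family factor, rose in the same 2 comparisons (0.81 ± 0.19, edgeR adjusted p = 0.018 and 0.86 ± 0.19, 0.01). Tmem2, a cell surface hyaluronidase, did so as well (0.57 ± 0.11, edgeR adjusted p = 0.0065 and 0.58 ± 0.11, 0.0055), so their direction was opposite to that of Gpr17 there. These calls each ended without some single libraries. They ended without either tMCAO_DE library for Mycl (edgeR adjusted p = 0.06 to 0.12) and without tMCAO_DE 2 for Tmem2 (0.092 and 0.1). The C1ql1 call ended for depletion in occluded mice without either tMCAO_DE library (edgeR adjusted p = 0.092 and 0.12), and for occlusion without 8 of the 13 libraries, sham_CON 3, sham_DE 1, 2 or 4, tMCAO_CON 1 or 3 or either one of tMCAO_DE (0.051 to 0.21). The Sox5 call ended without 9 of the 13, all but sham_DE 1 and tMCAO_CON 1, 2 and 3 (edgeR adjusted p = 0.053 to 0.12). The median change of these committed genes was -0.20, -0.01, -0.01 and 0.06 in the order depletion in sham mice, occlusion with microglia, occlusion after depletion and depletion in occluded mice. Of all tested genes, 4.49% were called lower for depletion in sham mice, 5.84% for occlusion after depletion and 9.26% for depletion in occluded mice. Called higher were 6.59% for occlusion after depletion and 1586 of 16940 for depletion in occluded mice.

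Genes of myelinating oligodendrocytes fell in part. With depletion in sham mice, 4 of 12 fell, beside 4.49% of all tested genes, among them the myelin-associated glycoprotein gene Mag (log2 change -0.50 ± 0.13, edgeR adjusted p = 0.026), Ermn (-0.68 ± 0.15, 0.017) and the galactolipid enzyme gene Ugt8a (-0.67 ± 0.17, 0.024). Occlusion with microglia lowered 2 of 12, beside 3.31% of all, among them Cnp (-0.37 ± 0.07, edgeR adjusted p = 0.0083). Occlusion after depletion, where 5.84% of all were lower and 6.59% higher, lowered Cnp (-0.36 ± 0.08, edgeR adjusted p = 0.016) and Aspa (-1.30 ± 0.29, 0.013) and raised Myrf, the factor that turns on myelin genes (0.54 ± 0.13, 0.02). Depletion in occluded mice lowered 3 of 12, beside 9.26% of all, namely Aspa (-1.14 ± 0.29, edgeR adjusted p = 0.018), Ermn (-0.84 ± 0.18, 0.0088) and Ugt8a (-0.83 ± 0.20, 0.014). Of these calls, that of Cnp for occlusion with microglia held without any single library. In sham mice the Mag call ended without any sham_CON library or sham_DE 2 or 4 (edgeR adjusted p = 0.059 to 0.088), that of Ermn without sham_CON 2 or sham_DE 2 or 4 (0.051 to 0.064) and that of Ugt8a without sham_CON 1 or 2 or sham_DE 3 or 4 (0.057 to 0.1). The calls that involve tMCAO_DE ended without either of its libraries for Aspa, Ermn, Ugt8a and Myrf (edgeR adjusted p = 0.056 to 0.13) and without tMCAO_DE 2 for Cnp (0.21). The medians of the 12 were -0.32, -0.21, -0.20 and -0.22 in the order of comparisons given above.

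**Figure D4:**
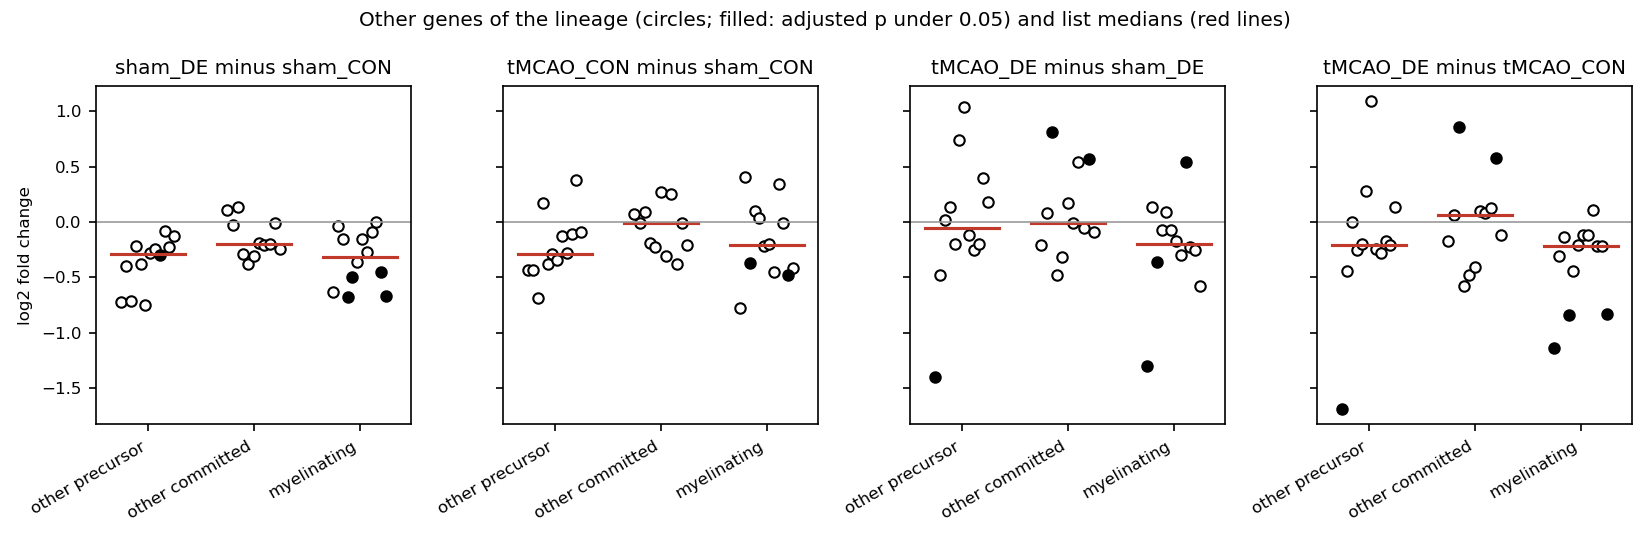
Fitted log2 fold changes of the other precursor, other committed and myelinating genes, 1 panel per comparison and 1 circle per gene, filled for an edgeR adjusted p under 0.05, with red lines at the list medians. All circles of both left panels lie between -1 and 1, and the filled ones below -1 in both right panels are C1ql1 and Aspa.

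Genes of signals that act on precursors were called in some comparisons. Of the PDGF ligands and the second PDGF receptor, 5 in all, only Pdgfc passed. It was lower with depletion in occluded mice (log2 change -0.78 ± 0.21, edgeR adjusted p = 0.024), where 9.26% of all tested genes were called lower. Among 14 regulators of differentiation, depletion in sham mice lowered the Notch effector Hes5 (-1 ± 0.23, edgeR adjusted p = 0.02) and raised Hes1 (0.68 ± 0.20, 0.042). Occlusion lowered Id4, an inhibitor of basic helix-loop-helix factors, with microglia (-0.59 ± 0.13, edgeR adjusted p = 0.013) and after depletion (-0.52 ± 0.15, 0.035). Sox8 was lower (-0.52 ± 0.15, edgeR adjusted p = 0.045 and -0.63 ± 0.17, 0.031) and Id2 higher in both. Notch1 (0.59 ± 0.13, edgeR adjusted p = 0.012) and Sox9 (0.54 ± 0.13, 0.016) rose with occlusion after depletion. None of the 14 passed for depletion in occluded mice in edgeR's test, where 18.6% of all tested genes did. For depletion in sham mice the calls among the 14 were 1 higher and 1 lower, where 11.3% of all tested genes were called. For occlusion they were 1 higher and 2 lower with microglia, beside 8.44% of all, and 3 higher and 2 lower after depletion, beside 12.4%. Each of these calls ended without 1 library or more. It was sham_CON 1 for Hes5 (edgeR adjusted p = 0.089) and for Id4 with microglia (0.056), and tMCAO_DE 2 for Sox9 (0.2). Either tMCAO_DE library, left out alone, ended the calls of Pdgfc (log2 change -0.87 and -0.69) and Notch1 (0.49 and 0.68). The Id4 call after depletion ended without sham_DE 1, 3 or 4 alone (edgeR adjusted p = 0.053 to 0.062). It also ended without either tMCAO_DE library alone (log2 change -0.65 and -0.41). For Hes1 it was 9 of the 13 libraries, all but sham_DE 1 and tMCAO_CON 1, 3 and 4 (edgeR adjusted p = 0.053 to 0.13). The Sox8 call ended with microglia without any of the sham_CON libraries, sham_DE 3 or 4 or tMCAO_CON 1, 2 or 3 (edgeR adjusted p = 0.055 to 0.12), and after depletion without sham_DE 2 or either tMCAO_DE library (0.056 to 0.28). For Id2 it ended with microglia without any sham_CON library or tMCAO_CON 1, 2 or 4 (edgeR adjusted p = 0.054 to 0.13), and after depletion without 11 of the 13, all but sham_DE 1 and 2 (0.052 to 0.29).

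Markers of the other cells that express Pdgfra, Cspg4 or Tnr were read alongside. Summed over 7 pericyte markers, levels were 191 to 203.2 CPM in sham_CON and 142.2 to 192.1 in tMCAO_CON. They were 143.7 to 197.3 in sham_DE and 120.6 to 144.8 in tMCAO_DE, the lowest range, and Cspg4 was also lowest there. In sham_CON most of that sum was Rgs5, at a mean of 117 CPM, and Vtn, at 50.1 CPM. For depletion in occluded mice the median log2 change of the 7 was 0.02. Of the 7 markers, Kcnj8 rose with occlusion (log2 change 0.63 ± 0.15, edgeR adjusted p = 0.024 with microglia and 0.91 ± 0.17, 0.0052 after depletion). Rgs5 fell with depletion in occluded mice (-0.52 ± 0.16, edgeR adjusted p = 0.039). The Kcnj8 calls ended without sham_CON 1 or 3 or tMCAO_CON 2 or 3 (edgeR adjusted p = 0.054 to 0.11) and without tMCAO_DE 1 (0.055). The Rgs5 call ended without 7 of the 13, sham_CON 3, sham_DE 4, tMCAO_CON 1, 3 or 4 or either tMCAO_DE library (edgeR adjusted p = 0.05 to 0.29). Summed over 5 fibroblast markers, levels were 15.9 to 24.2 CPM in sham_CON and 43.3 to 86.5 in tMCAO_CON. They were 21.5 to 32.3 in sham_DE and 26.4 to 44.7 in tMCAO_DE. For occlusion with microglia, 4 of 5 were called higher, beside 870 of all 16940 tested genes. These fibroblast calls were not checked in fits without single libraries, and in tMCAO_CON Dcn ran from 12.2 to 46.2 CPM and Col3a1 from 2.15 to 16. Pdgfra is a gene of fibroblasts too, and its highest library value was in tMCAO_CON. Summed over 7 astrocyte markers, levels were 4091 to 4136 CPM in sham_CON, 3698 to 4495 in tMCAO_CON, 1464 to 3971 in sham_DE and 2019 to 3665 in tMCAO_DE. In sham_CON most of that sum was the glutamate transporter gene Slc1a2, which passed in no comparison, and without it, a choice made after its values were seen, the ranges were 1010 to 1059, 1497 to 1947, 957.2 to 1090 and 1457 to 1508 CPM in that order. Gfap, the intermediate filament of reactive astrocytes, rose with depletion in sham mice (log2 change 1.14 ± 0.18, edgeR adjusted p = 0.0044) and with occlusion, by 3.63 ± 0.20 with microglia (1.2e-06) and by 2.09 ± 0.19 after depletion (7.1e-05). Aqp4 (0.62 ± 0.14, edgeR adjusted p = 0.016) and Aldh1l1 (0.42 ± 0.10, 0.018) rose with occlusion when microglia were present, and Aqp4 fell with depletion in occluded mice (-0.75 ± 0.16, 0.0085). The rise of Aqp4 ended without sham_CON 2 or 3 (edgeR adjusted p = 0.058 and 0.071), its fall without either tMCAO_DE library (0.066 and 0.076) and the rise of Aldh1l1 without sham_CON 1 or 3 (0.066 and 0.083). Of 5 interneuron markers, beside Tnr, 1 passed in any comparison, Pvalb, lower with depletion in occluded mice (log2 change -0.29, edgeR adjusted p = 0.031), a call that ended without tMCAO_CON 1, 2 or 3 or either tMCAO_DE library (0.054 to 0.2). No marker of these lists was without counts in a group, and their part in the results on Cspg4 and Pdgfra was not tested.

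The genes whose log2 CPM over the 13 libraries most resembled Gpr17 were Exd2 (Pearson r = 0.983), Zc3h7b (0.967), Gpd2 (0.965), Socs5 (0.961) and Sgtb (0.959). None is a gene of the lists above. For Pdgfra they were Dut (0.915), Ccny (0.902), Slc35f4 (0.887), BC048546 (0.879) and C920025E04Rik (0.853). These values describe likeness over libraries that share groups, and the genes were picked as the extremes of all tested genes.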

How the data were processed

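RNA of 13 libraries was read from the authors' deposited tables, 1 per group, which hold counts and FPKM per gene and library. The counts were deposited without normalisation, per the file headers. The FPKM values, per the file headers the authors' own, equalled counts divided by gene length and library total, with implied lengths within 1% between libraries for 100% of 8845 genes over 200 counts. Cufflinks 2.1.1, Cuffdiff and the build mm10 are named per the submitters' processing notes. The aligner, annotation, counter and strand setting were not given in the sources used here. Each library has its own animal identifier, and the number of the Rosa locus in the genotype labels, which also differs, was read as 1 genotype, which is an assumption.

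Counts of 29 repeated symbols were summed and 24 date-like names were left out. Counts were scaled by TMM and filtered by expression, which kept 16940 genes and removed 4116. A model of 4 group means was fitted over all 13 libraries with edgeR 4.0.16 in R 4.3.3 (common biological coefficient of variation 15.2%), tested two-sided by quasi-likelihood and adjusted by Benjamini-Hochberg over all tested genes at a threshold of 0.05. Counts were also simulated for 21056 genes, with the same spread for every gene and no outlying library. For depletion in sham mice, 94% of the 2-fold changes were recovered, which were given only to genes above a minimum mean level. The share does not measure recovery in the real libraries, whose spread differs between genes. Alternatives were other scalings, DESeq2 1.42.0, limma 3.58.1 on log2(FPKM + 1) and log2(FPKM + 0.1), no filter, only the groups compared, a replicate block and fits without libraries. Coordinates are from GENCODE M21 on GRCm38, and promoter windows from RefSeq on GRCm38.p6. The 10 genes and the other lists were chosen with earlier results of these data known. Named beyond the 10 were up to 4 genes per list and comparison with the lowest p, the 5 genes most like Gpr17 and the 5 most like Pdgfra, and genes overlapping a member on the annotation. A gene that this rule named is counted in its list but not reported here.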

Additional observations from a re-analysis of the deposited data

Results flagged for a closer look

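In tMCAO_CON, Olig2 was at 22.6 CPM in replicate 1 against 20.8 to 20.9 CPM in the other 3 libraries, a gap that is large for a group of 4. The committed minus precursor summary was 0.709 in replicate 3 of tMCAO_CON, apart from 0.52 to 0.54 in the others. These were 2 of 24 groups of 4 libraries checked, and chance sets apart about 1 in 20.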

How the results depend on the processing

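Gpr17 kept its direction and its call in all 4 comparisons under every alternative run, with adjusted p of at most 0.046 in edgeR. The number of the 10 genes called went from 3 to 1 for depletion in sham mice without sham_CON 2 and sham_DE 3 together, from 2 to 1 for occlusion with microglia in limma with either pseudocount, with a replicate block and without that pair, and from 0 to 1 for the interaction in DESeq2. Without single libraries it was 2 to 3, 1 to 2, 1 to 4, 1 to 4 and 0 to 0, in the order depletion in sham mice, occlusion with microglia, occlusion after depletion, depletion in occluded mice and interaction. Over all genes, counts of calls without single libraries were 591 to 3725, 564 to 1814, 453 to 2096, 346 to 3873 and 1 to 15, beside 1921, 1430, 2106, 3155 and 8 with all. A fit without 1 tMCAO_DE library assumes that the other one varies like the other groups. Depletion in sham mice gave 645 calls with only the groups compared, 219 without sham_CON 2 and sham_DE 3, and 3498 without sham_DE 1 and tMCAO_CON 4. Occlusion after depletion gave 1137 with only the groups compared. The interaction gave 111 in DESeq2, 32 and 23 in limma with pseudocounts of 1 and 0.1, and 1 without sham_CON 2 and sham_DE 3. With the replicate block, calls were 823 for depletion in sham mice, 1341 for occlusion after depletion and 2 for the interaction. The block ended the Cspg4 calls for occlusion with microglia (edgeR adjusted p = 0.074) and depletion in occluded mice (0.094) and the Olig1 calls for depletion in sham mice (0.093) and occlusion after depletion (0.054). Deviations of 16 same-numbered pairs correlated at -0.0641 to 0.106, beside -0.138 to 0.136 for pairs with different numbers. Of 13 libraries, 4 correlated best with their own number. The check cannot exclude a shared batch, because deviations within so small a group depend on each other. In limma on log2(FPKM + 0.1), 1522 of 1785 calls were higher for occlusion with microglia, 1350 of 2141 for occlusion after depletion and 1242 of 3088 for depletion in occluded mice, against 870 of 1430, 1116 of 2106 and 1586 of 3155 in edgeR. These limma fits used FPKM, which carry no TMM adjustment. For occlusion with microglia the median log2 change of all tested genes was 0.1 in limma on log2(FPKM + 0.1), against 0.017 in edgeR. The part of the missing adjustment in the shift was not tested. With upper-quartile scaling 0 of 7 interaction calls were higher, against 1 of 8.

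Changes that reversed were all of uncalled genes near 0. For occlusion with microglia, Bcas1 was -0.01 with DESeq2's size factors, in DESeq2, without a filter and with the replicate block, and -0.004 with only the groups compared, and -0.14 to 0.13 without single libraries. Itpr2 there was -0.003 with DESeq2's size factors and in DESeq2, -0.004 without a filter, -0.01 with the block, -0.05 without sham_DE 1 and tMCAO_CON 4, and -0.06 to 0.13 without single libraries. Sox10 was 0.05 in limma with either pseudocount and -0.1 to 0.03 without single libraries. For occlusion after depletion, Sox10 was 0.01 with the block, 0.03 in limma with either pseudocount, 0.02 without sham_CON 2 and sham_DE 3 and -0.08 to 0.02 without single libraries, and Olig2 was -0.28 to 0.05. For depletion in occluded mice, Pdgfra was 0.0008 and Itpr2 0.04 without sham_DE 1 and tMCAO_CON 4, and without single libraries Pdgfra was -0.16 to 0.03, Itpr2 -0.07 to 0.04 and Tnr -0.17 to 0.03. For depletion in sham mice Tnr was -0.17 to 0.02. The committed minus precursor summary, relative to sham_CON, was -0.33 in sham_DE, -0.15 in tMCAO_CON and -0.35 in tMCAO_DE, and -0.57, -0.29 and -0.75 without Tnr and Itpr2. It was -0.37 to -0.26, -0.19 to -0.07 and -0.43 to -0.26 without single libraries, with -0.07 for tMCAO_CON reached without sham_CON 2. The cause of these shifts was not tested. Enpp6 had the fewest counts of the 10, 29 to 81, and the part of depth in its spread was not tested.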
